A study of Mus musculus with 9 samples.

Results

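A set of 10 genes known from the supporting cells of the organ of Corti and from the Notch pathway were followed in RNA sequencing of the mouse cochlea: Jag1, Notch1, Lfng, Hes1, Hes5, Hey2, Sox2, Prox1, Fgfr3 and Lgr5. They were taken by gene symbol, and all 10 were among the 25579 symbols of one deposited table, which held treated and homozygous libraries. Prox1 was the 1 gene of the set among the 1410 symbols of another deposited table, which held homozygous and wild type (WT) libraries. The tissue was the membranous labyrinth, the soft tissue inside the bony cochlea, taken at postnatal day 28. The 9 libraries fell into 3 groups of 3. Treated mice were homozygous for a humanized MPZL2 gene with a nonsense change (hMPZL2Q74X/Q74X) and had received AAV-ie-ABE8eWQ-SpRY:sgRNA3, a viral vector for an adenine base editor and its guide RNA, by the round window route on postnatal day 2. Homozygous mice carried the same hMPZL2Q74X/Q74X genotype without treatment, and the WT mice were Mpzl2 WT. Both the treated and the homozygous group therefore carried the humanized allele. The labels list no homozygous group injected without the editor, so effects of injection, vector and editing cannot be told apart. Sex and strain are not given in the labels used here, and neither is the number of animals behind a library.

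Notch signalling passes between touching cells. A ligand such as Jag1 on one cell binds a receptor such as Notch1 on its neighbour, the receptor is cut, and its freed inner part joins the DNA-binding protein RBPJ to switch on repressors of the Hes and Hey families. Fringe enzymes, Lfng among them, add sugars to the receptor and change which ligands it answers to. In the developing organ of Corti this exchange keeps some cells as supporting cells while their neighbours become hair cells. Sox2, Prox1, Fgfr3 and Lgr5 mark supporting cells or their progenitors.

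Promoter sequence was examined for the letters GTGGGAA, or TTCCCAC where read from the other strand, the core that RBPJ is known to bind, since Notch targets are in the set. RefSeq promoters of build GRCm38.p6 were found for 8 of the 10 genes, with 10 promoters in all, and the 250 bases before each start were searched on both strands. Promoters of 3 genes held the letters, and they are shown here: Lfng, the gene that passed the test between treated and homozygous libraries, and the Notch targets Hey2 and Hes5. The Lfng promoter lies at chr5:140607091-140607340 on the plus strand, the Hey2 promoter at chr10:30842784-30843033 on the minus strand, and the Hes5 promoter at chr4:154960673-154960922 on the plus strand. The sequences run 5′ to 3′ along the gene, and capitals mark each match.
Lfng: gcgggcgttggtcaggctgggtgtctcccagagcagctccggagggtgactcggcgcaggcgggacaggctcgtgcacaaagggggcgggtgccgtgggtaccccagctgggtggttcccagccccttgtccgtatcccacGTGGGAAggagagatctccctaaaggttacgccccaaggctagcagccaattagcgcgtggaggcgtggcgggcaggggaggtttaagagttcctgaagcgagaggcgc
Hey2: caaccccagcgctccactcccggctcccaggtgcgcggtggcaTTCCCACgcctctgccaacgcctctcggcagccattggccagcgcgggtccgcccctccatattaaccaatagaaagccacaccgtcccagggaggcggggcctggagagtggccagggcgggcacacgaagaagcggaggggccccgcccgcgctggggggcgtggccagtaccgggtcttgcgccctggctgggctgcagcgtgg
Hes5: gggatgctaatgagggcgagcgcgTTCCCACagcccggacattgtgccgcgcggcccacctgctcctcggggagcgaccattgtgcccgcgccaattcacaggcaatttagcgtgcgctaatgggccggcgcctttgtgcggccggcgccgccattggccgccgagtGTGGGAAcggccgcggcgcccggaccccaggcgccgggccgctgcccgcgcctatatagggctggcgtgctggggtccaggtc
The match began 109 bases before the start in Lfng and 207 bases before it in Hey2, and Hes5 held 2 matches, at 226 and 83 bases. Of 32851 promoter windows of the same length, 5.42% held the core at least once and 0.161% held it 2 or more times. A longer form with a C before the core, CGTGGGAA, overlaps the core by design; read on both strands, it was in the Lfng and Hey2 windows and in 0.636% of all windows. Promoters of Jag1, Notch1, Sox2, Prox1 and Fgfr3 did not hold these letters in the windows searched. A match in letters is a description of the sequence and not a site at which binding was measured.

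Levels are in TPM, an abundance per transcript length that is scaled to a fixed library total. The number of reads behind a value is therefore unknown. The 2 tables were normalized separately and were compared only within themselves. Treated libraries 1 and 2 were close to identical: for 3104 genes at 1 to 5 TPM the robust SD of their log2 ratio was 0.0711, against 0.870 to 1.11 between homozygous libraries. Their difference was below the noise seen in any other pair of replicates, so their mean was used as 1 sample and the treated group has 2 samples against 3. Mpzl2 had 5.64, 5.62 and 16.3 TPM in treated libraries, against 17.4, 24.0 and 13.1 TPM in homozygous libraries, so the groups overlapped. Mitochondrially encoded transcripts made up 2.17% to 6.16% of TPM in treated libraries and 10.7% to 13.6% in homozygous libraries. The summed level of brain neuron markers was high in treated libraries 1 and 2 but not in treated library 3. Single markers differed there: Camk2a and Bcl11b were above every homozygous library, and Grin1 and Gria2 were below every one. Markers of immune cells were high in every treated library. Values are given with the cell type markers. Other supporting cell genes were present in every library, with a summed level of 2408 to 3237 TPM for treated and 2434 to 3060 TPM for homozygous libraries over 16 markers. Abundant markers in this sum moved in different directions. Gjb2 had 489, 473 and 993 TPM in treated libraries, against 704, 1167 and 677 TPM in homozygous libraries, while Ceacam16 was higher in each treated library. The sum therefore does not measure the amount of supporting cells.

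Of the 10 genes, Lfng was the 1 that passed the test between treated and homozygous libraries (limma, Benjamini-Hochberg adjusted p under 0.05 over 17102 genes), and it was higher in treated libraries. Over all genes tested, 4.41% passed in either direction and 3.44% passed as higher. Fgfr3, Notch1 and Lfng were higher in all 3 treated libraries than in any homozygous library, and Prox1, Hey2 and Hes1 were lower in all 3. Such separation was found for 28% of all genes tested in the higher and 14.8% in the lower direction, so 3 of 10 higher is near the share over all genes. An unadjusted p under 0.05 was found for 4 of the 10 genes and for 26.7% of all genes. Jag1, Sox2, Lgr5 and Hes5 overlapped between the groups. The median log2 fold change over the 10 genes was 0.26, beside 0.20 over all genes tested. After median-of-ratios scaling the median over all genes was 0.02, and of the 10 genes Lgr5 alone turned direction. Relative to the median of all genes, Lfng stood at 1.49, Fgfr3 at 1.40, Notch1 at 1.26, Prox1 at -1.30, Hey2 at -0.82 and Hes1 at -0.85. In bulk tissue, fewer cells of a type and less RNA per cell cannot be told apart, and p-values measure the spread between samples that the labels call biological replicates.

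**Figure D1:**
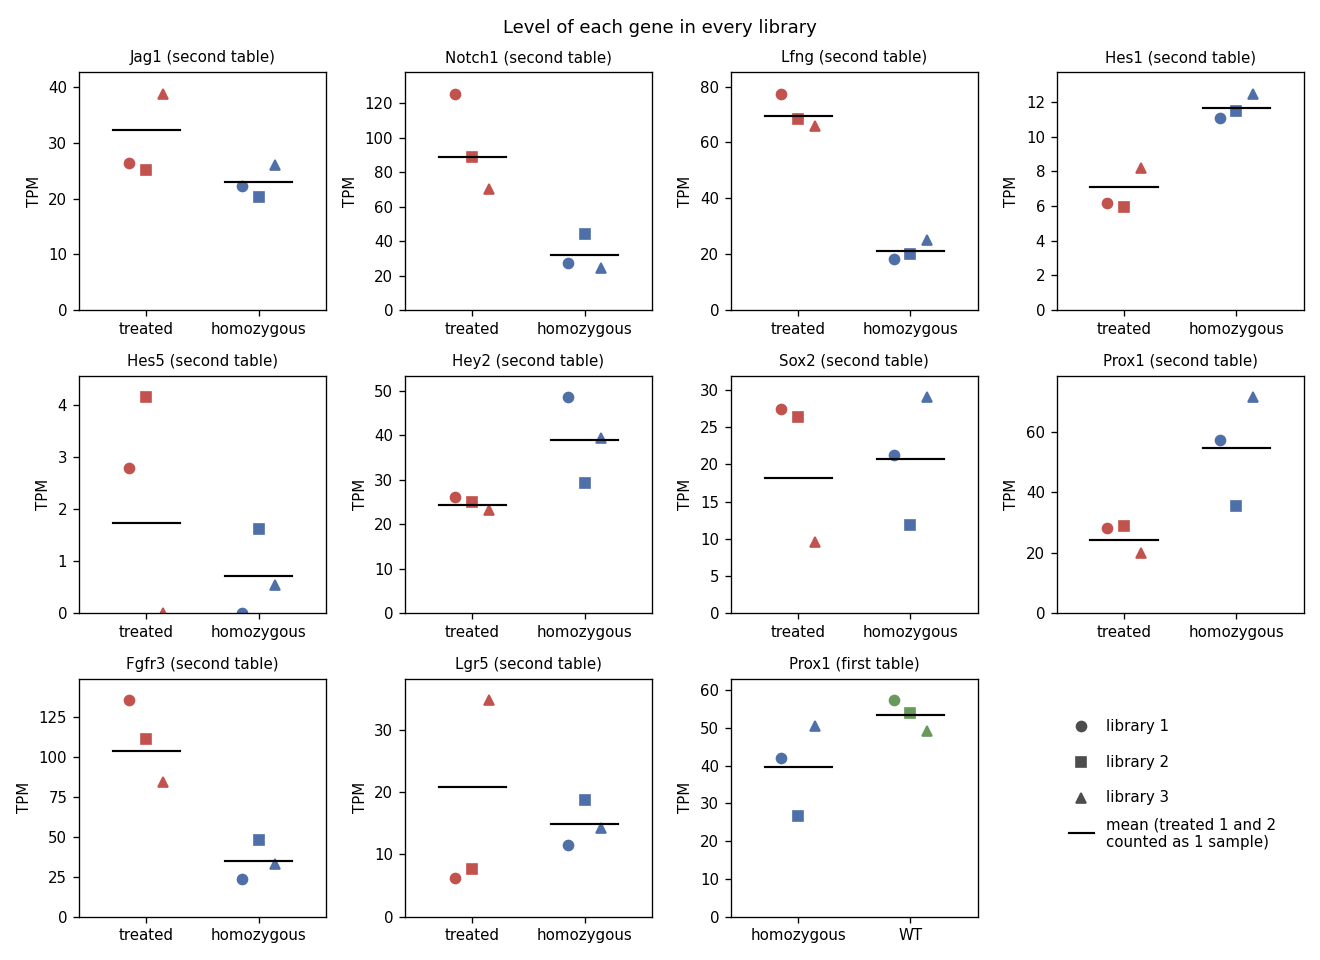
Level of each gene in TPM (y axis, from 0) in every library, with treated left of homozygous, and homozygous left of WT for Prox1 in the other table; symbols mark libraries 1 to 3 and the line is the mean, with treated libraries 1 and 2 counted as 1 sample. The treated libraries lie above every homozygous library for Notch1, Lfng and Fgfr3 and below every one for Hes1, Hey2 and Prox1.

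Among the ligands and receptors, Notch1 stood higher in treated libraries without passing the test, and Jag1 overlapped. Notch1, the receptor cut in response to ligand, had 125, 88.9 and 70.0 TPM in treated libraries 1 to 3, against 27.0, 44.1 and 24.7 TPM in homozygous libraries. Its mean was 88.5 ± 26.2 TPM (SD, n = 2) in treated and 31.9 ± 10.6 TPM (SD, n = 3) in homozygous libraries. The log2 fold change was 1.46 (SE 0.32), at a limma adjusted p of 0.0561. The lowest treated library was well above the highest homozygous library. Over 15 other settings the limma adjusted p of Notch1 was between 0.0165 and 0.22, with 4 below the threshold. Treated library 3 alone stood 1.15 above the homozygous mean on the log2 scale, and the mean of treated libraries 1 and 2 stood 1.76 above it. Jag1, a ligand that supporting cells are known to make, had 26.3, 25.1 and 38.7 TPM in treated libraries, against 22.3, 20.3 and 26.0 TPM in homozygous libraries. Treated library 3 was the high one, treated library 2 lay inside the homozygous range, and the log2 fold change of 0.46 had a limma adjusted p of 0.329.

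Notch1 took a larger share of its family in each treated library, a description that was not tested. It made up 58.5%, 49.7% and 42.8% of the summed TPM of the 4 Notch receptors in treated libraries, against 26.3%, 33.0% and 25.2% in homozygous libraries. Notch2 had 26.0% to 32.4% in treated and 32.9% to 38.1% in homozygous libraries, and Notch3 had 6.26% to 12.9% in treated and 20.5% to 27.2% in homozygous libraries. Notch2, the receptor with the most TPM in 2 of 3 homozygous libraries, stood 0.41 higher on the log2 scale (limma adjusted p = 0.225). Jag1 made up 47.2%, 44.1% and 67.7% of the Jag and Dll ligands in treated libraries, against 57.6%, 45.8% and 52.1% in homozygous libraries, and the shares overlapped.

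Lfng, the Fringe enzyme known from supporting cells, rose in treated libraries. It had 77.3, 68.6 and 66.1 TPM in treated libraries 1 to 3, against 18.2, 20.0 and 25.1 TPM in homozygous libraries. Its mean was 69.5 ± 4.87 TPM (SD, n = 2) in treated and 21.1 ± 3.56 TPM (SD, n = 3) in homozygous libraries. The treated libraries were close to each other and none overlapped with the homozygous ones. The log2 fold change was 1.68 (SE 0.23, 95% interval 1.14 to 2.23), with a limma adjusted p of 0.0199. Treated library 3 alone stood 1.61 above the homozygous mean and treated libraries 1 and 2 stood 1.75 above it. The call was lost when homozygous library 1, 2 or 3 was left out (limma adjusted p = 0.127, 0.0609 and 0.0826), with treated library 3 alone (0.0639) and without a filter on low values (0.0555). Over 15 other settings the adjusted p ranged from 0.00302 to 0.127, and 10 passed. With treated library 3 alone 1.3% of all genes passed and 0 of the 10, and with treated libraries 1 and 2 alone 17.4% passed and 3 of the 10 (Fgfr3, Lfng and Notch1).

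Lfng also took a larger share of the Fringe enzymes, which was not tested. It made up 58.7%, 57.1% and 65.4% of the summed TPM of Lfng, Mfng and Rfng in treated libraries, against 46.6%, 36.7% and 47.7% in homozygous libraries. Rfng made up 27.99% to 32.7% in treated and 45.4% to 55.4% in homozygous libraries. Among the 6 glycosyltransferases tested, 1 was higher (Lfng) and 0 were lower. Pofut1, which adds the fucose that Fringe enzymes extend, had 66.7, 58.5 and 38.2 TPM in treated libraries, against 16.0, 22.1 and 16.7 TPM in homozygous libraries; it was chosen after its values were seen, and its limma adjusted p was 0.0544.

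**Figure D2:**
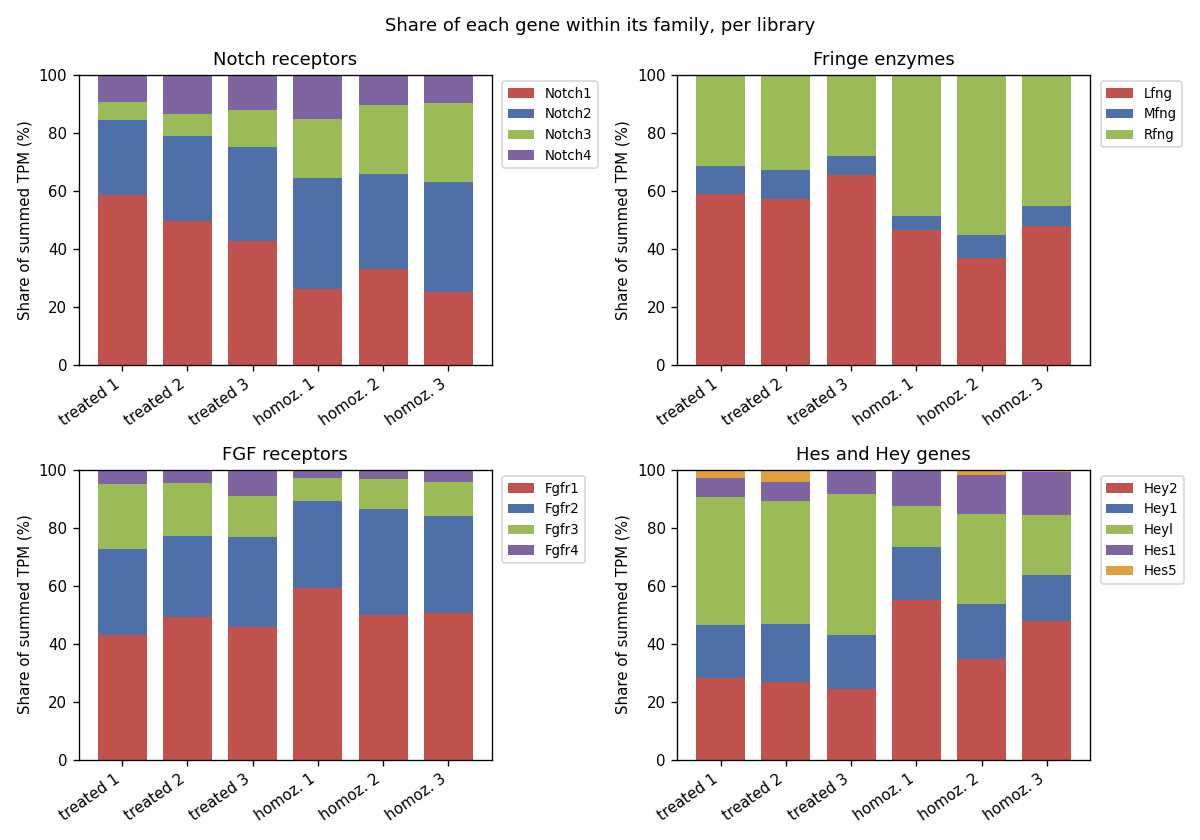
Share of each gene in the summed TPM of its family (y axis, percent), 1 bar per library, treated left of homozygous. Notch1, Lfng and Fgfr3 take a larger share, and Hey2 and Hes1 a smaller one, in each treated library than in any homozygous library.

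Of the Hes and Hey repressors, Hey2 and Hes1 were lower in all treated libraries, without passing the test. Hey2, a repressor of the Hey family known from pillar cells, had 26.2, 25.1 and 23.3 TPM in treated libraries, against 48.6, 29.2 and 39.4 TPM in homozygous libraries. Its log2 fold change was -0.63 (SE 0.27), with a limma adjusted p of 0.198. Homozygous library 2, at 29.2 TPM, was the nearest to the treated libraries.

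Hes1, a repressor that Notch signalling induces in many tissues, had 6.17, 5.97 and 8.17 TPM in treated libraries, against 11.1, 11.5 and 12.5 TPM in homozygous libraries. The groups did not overlap, and the log2 fold change was -0.65 (SE 0.32) with a limma adjusted p of 0.243. Treated libraries 1 and 2 stood 0.84 below the homozygous mean and treated library 3 stood 0.47 below it.

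Hes5, a repressor that Notch signalling is known to induce in developing supporting cells, was near the low end of the range. It had 2.78, 4.15 and 0 TPM in treated libraries, against 0, 1.61 and 0.553 TPM in homozygous libraries. It was listed at 0 in treated library 3 and homozygous library 1, and it was higher in treated libraries 1 and 2 alone. Its log2 fold change was 0.41 with a limma adjusted p of 0.76, and with treated library 3 alone it stood 0.67 below the homozygous mean.

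Within the Hes and Hey family the share of Hey2 was 27.97%, 26.7% and 24.3% in treated libraries, against 55.0%, 34.5% and 47.8% in homozygous libraries. Heyl, chosen after its values were seen, made up 44.1%, 42.6% and 48.4% in treated libraries, against 14.1%, 31.0% and 20.6% in homozygous libraries. The sum of the 5 genes was 93.7 to 95.6 TPM in treated and 82.6 to 88.4 TPM in homozygous libraries. Hey2 was the most abundant of the 5 in each homozygous library and Heyl in each treated library. In a larger list of 9 tested Hes, Hey and Id genes, Id2, an inhibitor of helix-loop-helix factors, was the 1 that passed. Control of the Id genes by Notch was not tested. Id2 was lower, at 57.1, 56.3 and 48.9 TPM in treated libraries, against 114, 90.8 and 121 TPM in homozygous libraries (log2 fold change -1.02, limma adjusted p = 0.0448). Its adjusted p ranged from 0.0109 to 0.212 over 15 other settings, with 7 past the threshold, and it was 0.079 with treated library 3 alone, 0.0509 without that library, and 0.212, 0.068 and 0.187 when homozygous library 1, 2 or 3 was left out.

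Fgfr3, the FGF receptor of pillar and Deiters cells, was the most abundant of the 10 genes in treated libraries. It had 135, 111 and 84.4 TPM in treated libraries, against 23.3, 47.6 and 32.7 TPM in homozygous libraries. Its mean was 104 ± 27.5 TPM (SD, n = 2) in treated and 34.6 ± 12.3 TPM (SD, n = 3) in homozygous libraries. The groups did not overlap, yet the log2 fold change of 1.59 (SE 0.33, 95% interval 0.79 to 2.39) had a limma adjusted p of 0.0517, just over the threshold. Treated library 3 alone stood 1.32 above the homozygous mean, and over 15 other settings the limma adjusted p was between 0.0131 and 0.189, with 4 past the threshold.

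The share of Fgfr3 among the 4 FGF receptors was 22.5%, 18.2% and 14.2% in treated libraries, against 7.71%, 10.3% and 11.7% in homozygous libraries. Fgfr1 and Fgfr2, the receptors with the highest levels, had log2 fold changes of 0.61 and 0.67 (limma adjusted p = 0.158 and 0.202). Fgfr4, named after its values were seen, stood 1.64 higher on the log2 scale and did not pass (limma adjusted p = 0.0571). Its share was also larger in each treated library, at 4.9%, 4.6% and 9.0%, against 3.0%, 3.4% and 4.3% in homozygous libraries. Of 10 other tested genes of the FGF list, 0 passed the test in limma and 5 had an unadjusted p under 0.05, beside 4.41% and 26.7% of all genes tested. With the treated libraries as 3 samples the count was 3 higher and 1 lower. The share over all genes in that setting is not given here. The median log2 fold change of the list was 0.55, against 0.20 over all genes tested.

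Of the progenitor and supporting cell transcription factors, Prox1 was lower in all treated libraries and Sox2 was mixed. Prox1, a homeodomain factor of Deiters and pillar cells, had 28.3, 28.7 and 19.9 TPM in treated libraries, against 57.1, 35.3 and 71.4 TPM in homozygous libraries. Its mean was 24.2 ± 6.10 TPM (SD, n = 2) in treated and 54.6 ± 18.2 TPM (SD, n = 3) in homozygous libraries. The groups did not overlap, and the log2 fold change was -1.10 (SE 0.34) with a limma adjusted p of 0.106, between 0.0493 and 0.321 over 15 other settings. Homozygous library 2 was the low one of its group. The same library had the lowest summed Schwann cell and oligodendrocyte markers of the 3 homozygous libraries. It also had the highest summed supporting cell and hair cell markers of the 3. A link of these sums to Prox1 was not tested.

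Sox2, which is needed for the prosensory domain, had 27.4, 26.3 and 9.59 TPM in treated libraries, against 21.2, 11.8 and 29.0 TPM in homozygous libraries. Treated library 3 was the lowest of the 6 and treated libraries 1 and 2 lay inside the homozygous range. The log2 fold change was -0.25 (SE 0.53) with a limma adjusted p of 0.793, and it was 0.45 without treated library 3.

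Prox1 was also compared between homozygous and WT mice in the other table. It had 41.9, 26.8 and 50.5 TPM in homozygous libraries, against 57.2, 54.0 and 49.1 TPM in WT libraries. Its mean was 39.7 ± 12.0 TPM in homozygous and 53.5 ± 4.08 TPM in WT libraries (SD, n = 3 each), and homozygous library 3 lay inside the WT range. The log2 fold change was -0.46 (SE 0.22) with a limma adjusted p of 0.0809. Over all tested genes of that table the median log2 fold change was -0.36, and Prox1 stood at -0.1 relative to it. After median-of-ratios scaling Prox1 had -0.32 with a limma adjusted p of 0.198. Of 12 other settings 1 passed, the fit without homozygous library 3 (limma adjusted p = 0.0423). That table holds a part of the genes, chosen by a rule not given in the sources used here, and 51.3% of its 1348 tested genes passed. The adjusted p of Prox1 there holds for that chosen list. The homozygous levels of Prox1 differ between the tables, which were normalized apart, and both comparisons share the homozygous libraries.

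In that table, 2 of 5 tested genes of the Wnt and Lgr list passed, both lower in homozygous libraries. Of 4 tested genes of the Notch lists, 2 passed, both lower. After median-of-ratios scaling it was 1 lower (Hey1) and 1 higher (Spen), and Dner no longer passed. Over all its tested genes 33.5% passed as lower. The median log2 fold change over them was -0.36, and -0.22 after median-of-ratios scaling. Hey1, a Notch target of the same family as Hey2, had 12.2, 12.7 and 12.6 TPM in homozygous libraries, against 21.0, 17.4 and 21.3 TPM in WT libraries (log2 fold change -0.62, limma adjusted p = 0.0312, between 0.0243 and 0.0845 over 12 other settings). Rspo1, an R-spondin, had 8.67, 9.74 and 5.95 TPM in homozygous libraries, against 20.4, 15.3 and 20.1 TPM in WT libraries (log2 fold change -1.12, limma adjusted p = 0.0154, between 0.0128 and 0.0553 over 12 other settings). Dner and Nkd1, a Wnt inhibitor, were lower with log2 fold changes of -0.49 and -0.59 (limma adjusted p = 0.0498 and 0.0329). Over 12 other settings the adjusted p was between 0.0373 and 0.114 for Dner, with 3 past the threshold, and between 0.0316 and 0.0852 for Nkd1, with 7. Adam10, Spen, Eya1 and Sox9 had log2 fold changes of -0.36, 0.26, 0.32 and 0.41 and did not pass the limma test. Relative to the median of all tested genes, Rspo1 stood at -0.753, Hey1 at -0.259, Nkd1 at -0.225, Dner at -0.131 and Adam10 at -0.001. Spen, Eya1 and Sox9 stood at 0.623, 0.682 and 0.77. After median-of-ratios scaling Spen, Eya1 and Sox9 passed as higher (limma adjusted p = 0.0372, 0.0346 and 0.0316). Cell type markers moved in the same table, and their part in these values and in that of Prox1 was not tested. Schwann cell markers summed to 2637 to 5034 TPM in homozygous libraries and 7077 to 7595 TPM in WT libraries, with 4 of 5 lower by limma. Of the list of 12 brain neuron markers, only Slc17a7, Grin1 and Gria2 were in that table. These 3 summed to 220 to 300.1 TPM in homozygous and 333 to 399 TPM in WT libraries, and 1 (Slc17a7) was lower. In the other table, homozygous libraries held 140 to 183 TPM of Slc17a7 beside 0.471 to 0.554 TPM of Camk2a. Slc17a7 was thus present with little Camk2a, and the cell source of these 3 genes was not tested. Of 5 bone genes 3 were lower and 1 was higher.

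Lgr5, a receptor for R-spondins that marks supporting cells able to act as progenitors in young cochleae, differed between the treated libraries. It had 6.25, 7.60 and 34.8 TPM in treated libraries, against 11.5, 18.9 and 14.3 TPM in homozygous libraries. Treated libraries 1 and 2 were the lowest of the 6 and treated library 3 was the highest. The log2 fold change was 0.11 with a limma adjusted p of 0.926, and its direction turned after median-of-ratios scaling (-0.07). Treated library 3 stood 1.20 above the homozygous mean and treated libraries 1 and 2 stood 0.97 below it. Lgr5 made up 14.4%, 16.9% and 51.1% of the 3 Lgr receptors in treated libraries, against 23.6%, 31.6% and 29.9% in homozygous libraries.

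Of 15 other tested genes of the Wnt and Lgr list, 1 passed, beside 4.41% of all genes tested: Axin2, a feedback inhibitor of Wnt signalling, was higher. An unadjusted limma p under 0.05 was found for 9 of the 15, beside 26.7% of all genes tested. The median log2 fold change of the 15 was 0.73, against 0.20 over all genes. Without treated library 3 the median was 0.59, against 0.29 over all genes. With that library alone it was 0.83, against 0.085 over all genes. The count of genes that passed was 0 when homozygous library 1, 2 or 3 was left out. Axin2 had 129, 124 and 132 TPM in treated libraries, against 48.4, 54.0 and 63.0 TPM in homozygous libraries (log2 fold change 1.22, limma adjusted p = 0.0257). The treated libraries were nearly equal, and no library of one group overlapped with the other. The call of Axin2 was lost with treated library 3 alone (limma adjusted p = 0.0691), when homozygous library 1, 2 or 3 was left out (0.158, 0.0707 and 0.106), without a filter (0.0623) and without the variance trend (0.0599). Over 15 other settings its adjusted p was between 0.0046 and 0.158.

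**Figure D3:**
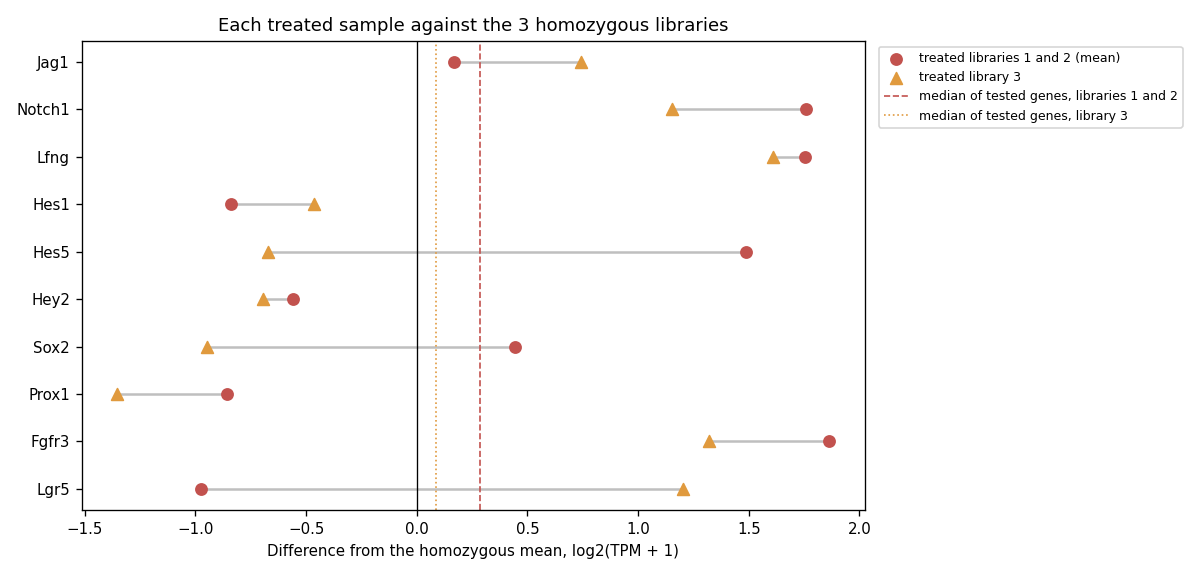
Difference of the mean of treated libraries 1 and 2 (circles) and of treated library 3 (triangles) from the homozygous mean (x axis, log2(TPM + 1)), 1 row per gene; dashed and dotted lines mark the median over all tested genes. Fgfr3, Notch1 and Lfng lie to the right for both, Prox1, Hey2 and Hes1 to the left for both, and Lgr5, Sox2 and Hes5 lie on opposite sides.

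Of 51 tested genes of the Notch pathway list outside the 10, 0 were higher and 1 was lower by limma, where 0.965% of all genes passed as lower. The 1 lower gene was Id2, and control of Id2 by Notch was not tested. The counts depended on the setting. They were 0 higher and 0 lower when homozygous library 1, 2 or 3 was left out. With the replicate block they were 4 and 1, and with the treated libraries as 3 samples 12 and 2. The share over all genes in these settings is not given here. The median log2 fold change of the 51 was 0.42 without treated library 3, against 0.29 over all genes. With that library alone it was 0.23, against 0.085 over all genes. An unadjusted p under 0.05 was found for 18 of the 51, beside 26.7% of all genes tested. Their median log2 fold change was 0.32, against 0.20 over all genes. Of the 6 ligands, 4 receptors, 10 cleavage genes, 10 nuclear complex genes and 12 trafficking genes tested, none passed the limma test. Among the most abundant of these were Dner, Adam10, Kat2b, Dtx3 and Bend6. Dner, a Notch ligand, had a log2 fold change of -0.38, Adam10, which cuts Notch, -0.41, and the coactivator Kat2b -0.36. Dtx3 and Bend6 had 0.83 and -0.91 (limma adjusted p = 0.0814 and 0.157). Of the sensory epithelium transcription factors, Eya1 had 0.44 and Isl1 -1.28, with limma adjusted p of 0.15 and 0.0708. Rbpj, the DNA-binding partner of cleaved Notch, had 46.1, 43.4 and 58.0 TPM in treated libraries, against 81.8, 61.0 and 87.5 TPM in homozygous libraries, and its log2 fold change was -0.57 at a limma adjusted p of 0.184. Neurl1a and Neurl1b, named after their values were seen, were high in treated libraries 1 and 2. Neurl1a had 40.3, 38.9 and 1.27 TPM in treated libraries, against 1.03, 1.80 and 0.882 TPM in homozygous libraries. Neurl1b had 40.8, 43.7 and 6.11 TPM in treated libraries, against 1.69, 1.28 and 1.60 TPM in homozygous libraries. Treated library 3 lay inside the homozygous range for Neurl1a and above it for Neurl1b, which did not pass the limma test (adjusted p = 0.0781).

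**Figure D4:**
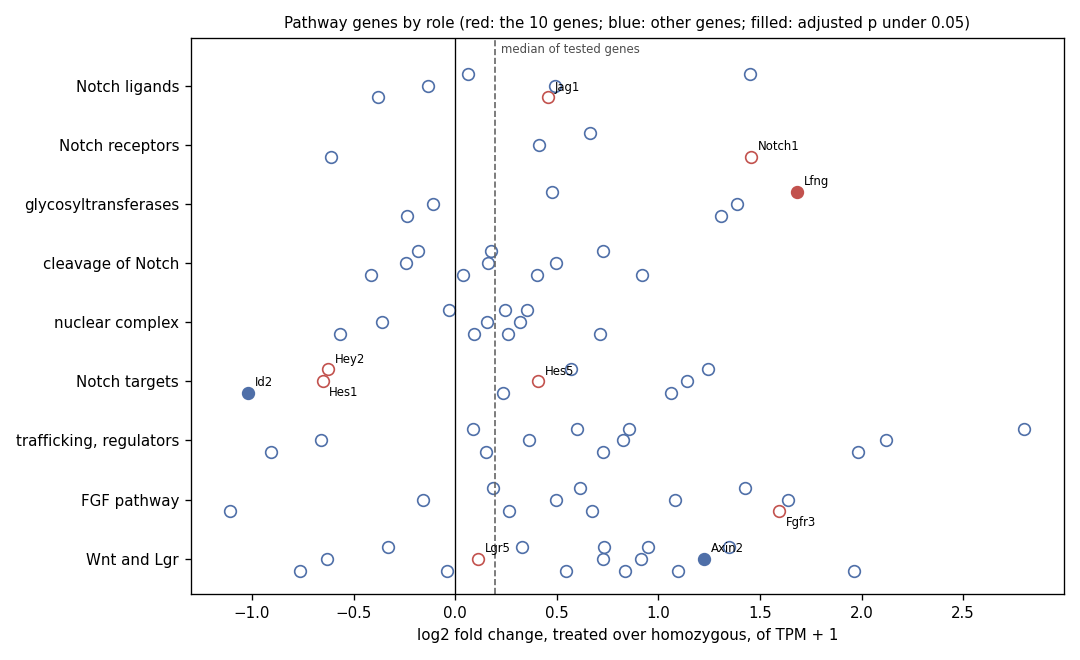
Log2 fold change of treated over homozygous libraries (x axis, of TPM + 1) for each tested gene, in rows by role; red marks the 10 genes, blue other genes, and filled points passed the limma test. Lfng, Id2 and Axin2 are the filled points, and the dashed line is the median over all tested genes. The row of Notch targets also holds Id1, Id2 and Id3, whose control by Notch was not tested.

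Markers of other cells moved with the treated group, and their part in the results above was not tested. Brain neuron markers summed to 1752, 1719 and 305 TPM over 12 genes in treated libraries, against 373, 318 and 414 TPM in homozygous libraries, and Camk2a, a brain kinase, had 745, 722 and 8.13 TPM in treated libraries and 0.471 to 0.554 TPM in homozygous libraries. Astrocyte markers summed to 1651, 1650 and 287 TPM in treated libraries, against 522, 365 and 504.4 TPM in homozygous libraries. In treated library 3 both sums were below the homozygous range, while single markers in them went both ways. Camk2a, Bcl11b (2.04 TPM) and Slc1a2 (174 TPM) there were above every homozygous library. Grin1 (93.4 TPM), Gria2 (17.0 TPM) and Gfap (8.20 TPM) there were below every one. Lfng, Notch1 and Fgfr3 were above every homozygous library in each treated library. The part of brain or immune cells in these 3 levels was not tested. Sox2, Fgfr3, Notch1 and Hes5 are also known from astrocytes or neural progenitors.

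Schwann cell markers summed to 3119 to 3626 TPM over 9 genes in treated libraries and 3906 to 7553 TPM in homozygous libraries, and oligodendrocyte markers to 490 to 594 TPM in treated and 766 to 2437 TPM in homozygous libraries. Macrophage markers summed to 520 to 589 TPM in treated and 107 to 149 TPM in homozygous libraries, with 7 of 10 higher by limma. T cell markers summed to 114 to 151 TPM in treated and 2.09 to 5.20 TPM in homozygous libraries, with 9 of 9 higher by limma. Of these lists, Gzmb and Neurod6 were listed at 0 in every homozygous library. Interferon response genes summed to 2186 to 2413 TPM in treated and 128 to 175 TPM in homozygous libraries, with 9 of 10 higher. Hair cell markers summed to 903, 776 and 721 TPM in treated libraries, against 575, 687 and 652 TPM in homozygous libraries. The hair cell sums did not overlap between the groups. Of the 16 tested hair cell markers, 14 had a log2 fold change above 0 and 2 below it. Myo6, an abundant one, was lower, at 175.7, 176 and 224.5 TPM in treated libraries, against 366.9, 367.5 and 306.9 TPM in homozygous libraries. The sum therefore does not measure the amount of hair cells.

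**Figure D5:**
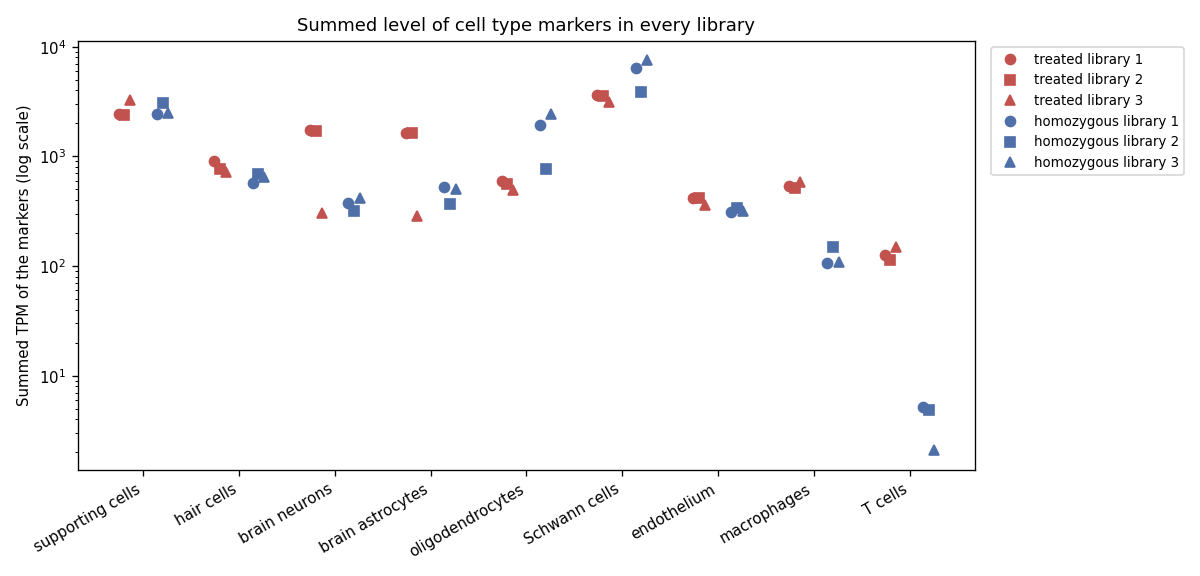
Summed TPM of the markers of each cell type (y axis, log scale) in every library, treated left of homozygous. The sums of brain neuron and astrocyte markers are high in treated libraries 1 and 2 only, though single markers such as Camk2a differ. Macrophage and T cell sums are high in all 3 treated libraries, and supporting cell sums overlap.

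The order of the 10 genes by mean level differed between the groups. In treated libraries Fgfr3, Notch1 and Lfng came first, with overlapping ranges, and Jag1 followed below them without overlap. Hey2, Prox1, Lgr5 and Sox2 came next with overlapping ranges, then Hes1 and Hes5. In homozygous libraries Prox1 came first at 54.6 TPM and Hey2 second at 39.1 TPM, and each gene down to Hes1 overlapped with the next one in the order. Lfng stood between percentiles 79.1 and 81.4 of all tested genes in treated libraries and between 52.9 and 59.8 in homozygous libraries. Prox1 stood between percentiles 50.6 and 55.9 in treated libraries and between 67.8 and 83.9 in homozygous libraries. Lfng thus ranked above Prox1 in every treated library and below it in every homozygous library.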

How the data were processed

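RNA was measured by stranded total RNA sequencing, with TRIzol extraction, per the labels' protocols. The authors deposited TPM values in 2 tables. The submitters' processing notes name kallisto 0.51.0, DESeq without a version, and build GRCm39. The order and settings of these steps are not given in the sources used here. The genotype field of the labels counts upward between samples, so groups were taken from the titles.

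Repeated symbols were summed, and genes that reached 1 TPM in 3 or more libraries were tested on log2(TPM + 1) with limma 3.58.1 in R 4.3.3, with a mean-variance trend, two-sided, with Benjamini-Hochberg adjustment over each whole table and a threshold of 0.05. Such fold changes understate the change of low genes. Treated libraries 1 and 2 were averaged to 1 sample. The 2 tables were fitted apart, and no test set treated against WT libraries. The script was tested on simulated data. Alternatives were other scalings, pseudocounts, filters, variance models, left-out libraries and a replicate block. The genes and lists were chosen with earlier results of these data known, and the rule for other named genes took up to 2 higher and 2 lower genes past the threshold per list, or else the 2 with the highest mean. The results of 2 genes that the rule named are not reported here.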

Additional observations from a re-analysis of the deposited data

How the results depend on the processing

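Lfng was the 1 gene of the 10 past the threshold between treated and homozygous libraries, and it stayed so after median-of-ratios scaling, scaling to nuclear-encoded rows, a pseudocount of 0.1 TPM and without the variance trend. The count was 0 without a filter, 3 with a filter of 5 TPM (Fgfr3, Lfng and Notch1) and 4 with the treated libraries as 3 samples. It was 0 when homozygous library 1, 2 or 3 was left out, and 1 when treated library 1 or 2 was left out. Over all genes 4.41% passed in the main fit. The share in these other settings and with the replicate block is not given here, so these counts cannot be set beside all genes. For homozygous against WT the count was 0, and between 0 and 1 when 1 library was left out. The replicate block gave 3 calls (Fgfr3, Lfng and Notch1). Same-numbered libraries had correlations of deviations between -0.146 and 0.0493, and differently numbered ones between -0.136 and 0.164. Groups of 3 libraries, with treated libraries 1 and 2 close to identical, are too few to settle whether the numbers pair the samples. Of 161 alternative values for the 10 genes, 137 kept direction and side of the threshold, 5 lost it, 10 gained it and 9 turned direction. Lgr5 turned with median-of-ratios scaling (-0.07), scaling to nuclear-encoded rows (-0.0099), the block (-0.25) and 3 treated samples (-0.25), and spanned -0.97 to 0.29 when 1 library was left out. Sox2 spanned -0.59 to 0.45 when 1 library was left out, and Hes5 turned to -0.67 without treated libraries 1 and 2. The cause was not tested. Where 1 treated sample was left, it was assumed to vary like the homozygous libraries. TPM keeps no depth, so the precision behind low genes such as Hes5 is unknown.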

Other observations

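Of 16 tested supporting cell markers outside the 10, 2 were higher in treated libraries by limma and 0 were lower, where 3.44% of all genes passed as higher. After median-of-ratios scaling the counts were 1 higher and 0 lower, and the share over all genes there is not given here. The median log2 fold change of the 16 was -0.16, against 0.20 over all genes. It was -0.23 without treated library 3 and 0.19 with that library alone, against 0.29 and 0.085 over all genes. Otog, a protein of the acellular membranes over the sensory epithelium, had 98.2, 90.8 and 87.9 TPM in treated libraries, against 18.4, 16.9 and 30.7 TPM in homozygous libraries (log2 fold change 2.05, limma adjusted p = 0.0223). Ceacam16, a tectorial membrane protein, had 663, 671 and 492 TPM in treated libraries, against 232, 222 and 290 TPM in homozygous libraries (log2 fold change 1.21, limma adjusted p = 0.0375). Neither gene overlapped between the groups. Over 15 other settings the limma adjusted p was between 0.00458 and 0.129 for Otog and between 0.00776 and 0.191 for Ceacam16, and with treated library 3 alone it was 0.0741 and 0.083. Of 16 tested hair cell markers 1 was higher and 0 were lower by limma, beside 3.44% and 0.965% of all genes tested. Their median log2 fold change was 1.08, with 1.49 without treated library 3 and 0.74 with that library alone. The 1 hair cell marker that passed was Ush1c, a scaffold protein of the hair bundle. It had 68.5, 73.6 and 54.2 TPM in treated libraries, against 19.4, 21.2 and 26.3 TPM in homozygous libraries (limma adjusted p = 0.0331). Its groups did not overlap either, and over 15 other settings its limma adjusted p was between 0.00587 and 0.17. These 3 genes were chosen after their values were seen.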
